A study of Oryctolagus cuniculus with 24 samples.

Results

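The GATA factors are transcription factors that bind the DNA motif they are named after through zinc fingers, and FOXP3 is a forkhead transcription factor. The genes described here are GATA1, GATA2, GATA3, GATAD2B and FOXP3, chosen by name from the probes of a rabbit immunity microarray. All 5 were measured, by 6 probes, of 28864 genes measured by 42089 probes on the array. For each gene the log2 median signals were centred on the median of the array's non-control spots and averaged over its probes, so that a level of 0 is the array median and a difference of 1 is a 2-fold difference in signal. Local background was not subtracted, so that folds are of signal with background in it, which matters most for dim genes.

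Peripheral blood mononuclear cells (PBMCs), mainly lymphocytes and monocytes, were taken from 4 adult female New Zealand White rabbits, named rabbits 1, 2, 4 and 5. They were cultured in the same medium with serum for 4 h (T4) or 24 h (T24). At each time the groups were mock-stimulated PBMCs, PBMCs stimulated with LPS (lipopolysaccharide of bacterial outer membranes) at 1 µg/mL, and PBMCs stimulated with a mixture of PMA at 10 ng/mL and ionomycin at 1 µg/mL. PMA, a phorbol ester, switches on protein kinase C, and ionomycin lets calcium into the cell. Each of the 6 groups holds 4 arrays, 1 of each rabbit, and the 24 one-colour arrays lie on 3 slides that each carry all 6 groups. As PBMCs are a mixture, fewer cells of a type and less RNA per cell cannot be told apart in these values.

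GATA1 and GATA2 are best known from blood formation. GATA1 is required for red cells and megakaryocytes, GATA2 for stem and progenitor cells, and both act in mast cells and basophils. GATA3 is needed for T cell development and directs helper T cells to the Th2 fate, in which IL4, IL5 and IL13 are made, and FOXP3 defines regulatory T cells. GATAD2B carries a GATA-type zinc finger but is a subunit of NuRD, a complex that remodels and deacetylates chromatin, and is not a member of the GATA1 to GATA3 group.

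The oligonucleotides are shown because the identity of each gene rests on them, and because they decide how much independent measurement stands behind each value. All are 60 bases long and are written 5′ to 3′, with the bases shared by both GATA2 probes in capitals.
GATA1: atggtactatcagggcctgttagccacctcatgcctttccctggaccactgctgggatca
GATA2, first probe: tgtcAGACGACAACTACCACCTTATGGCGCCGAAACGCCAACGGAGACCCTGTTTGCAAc
GATA2, second probe: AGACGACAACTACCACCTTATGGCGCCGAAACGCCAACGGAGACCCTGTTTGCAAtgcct
GATA3: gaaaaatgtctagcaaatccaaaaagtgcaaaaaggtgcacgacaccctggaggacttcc
GATAD2B: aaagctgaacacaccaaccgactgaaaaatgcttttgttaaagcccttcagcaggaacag
FOXP3: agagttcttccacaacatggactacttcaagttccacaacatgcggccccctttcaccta

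The 2 GATA2 probes share an unbroken run of 55 bases, so that they are close to a repeat of 1 measurement. The files place them on oryCun2 at chr9:7432540-7432599 and chr9:7432536-7432595, both on the minus strand. Their description in the files names a uterine GATA-4 factor, while the RefSeq gene table gives their accession and gene number as GATA2. GATA4 has a probe of its own on the array. The GATA3 probe lies at chr16:12463688-12463747 on the plus strand, and the GATAD2B probe at chr13:38698142-38698201 on the plus strand. The FOXP3 probe is placed over chrX:33821292-33821968 on the minus strand, a span of 677 bases for a 60-base oligo. The GATA1 probe has no position in the files and carries an Ensembl gene identifier, which was named through the study's list of immune genes added to the array. Which exon each probe lies in was not analysed here.

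GATA1 was printed in 3 spots and the probes of GATA2, GATAD2B and FOXP3 in 1 spot each. The GATA3 oligo was printed once under its own accession and 3 more times under another identifier with no gene name, and these further spots are used as a check below. Signals were low for most of the genes. The local background around the spots was 26 to 43 in pixel brightness. GATA1 gave 98.7 to 355, FOXP3 209 to 366 and GATAD2B 54 to 227, all well above background (by the scanner software's own test) on all 24 arrays. The first and second GATA2 probes were so on 18 and 17 arrays, with signals from 41.5 to 201 and from 46 to 189.5, and GATA3 on 15 arrays, with signals from 47 to 113.5. No spot of these genes was saturated. The plot of levels by group shows all of these values.

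**Figure D1:**
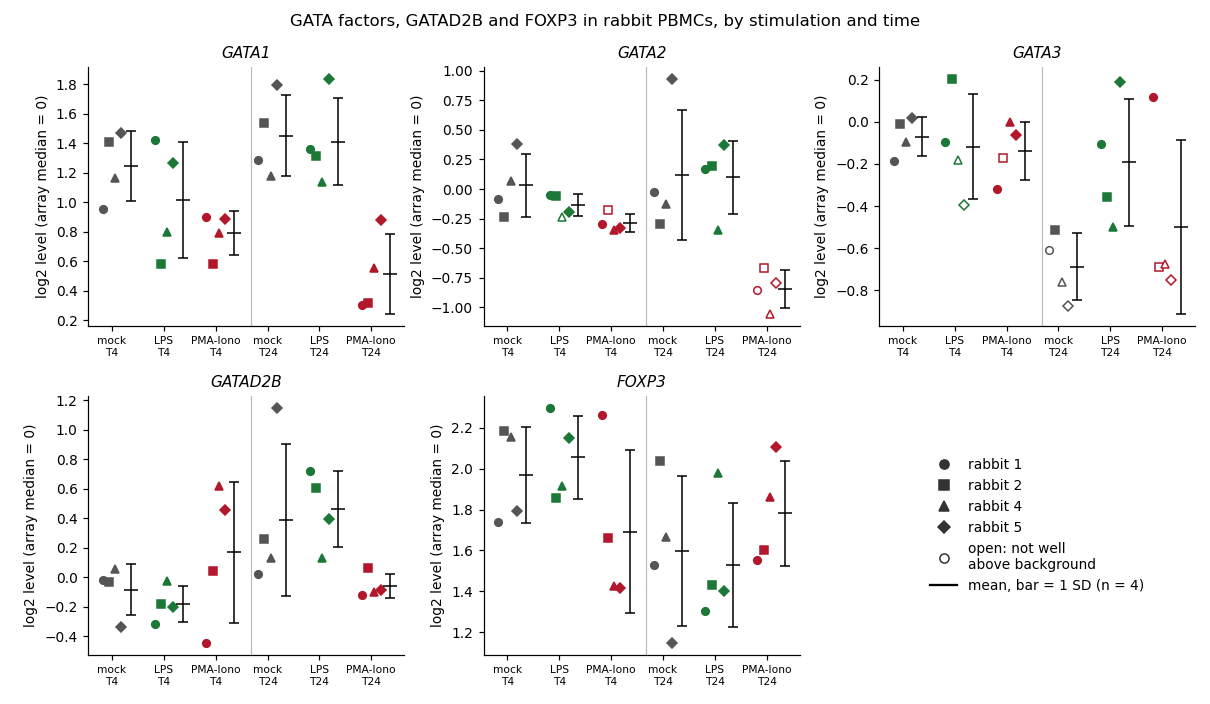
Log2 level (array median = 0) of GATA1, GATA2, GATA3, GATAD2B and FOXP3 in the 6 groups, with 1 point for each rabbit and the mean with 1 SD (n = 4) beside it. Open points are not well above background. GATA1 and GATA2 are lowest in PMA-Ionomycin T24, where all 4 points lie below all 4 of mock T24, and GATA3 is lower in mock T24 than in mock T4.

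GATA1 and GATA2 were down-regulated by PMA-Ionomycin at T24, and neither passed the threshold for LPS at either time. In mock T24 the GATA1 level was 1.29, 1.54, 1.18 and 1.79 in rabbits 1, 2, 4 and 5. After 24 h of PMA-Ionomycin it was 0.30, 0.32, 0.55 and 0.88 in the same order. All 4 stimulated cultures lay below all 4 mock cultures, and rabbit 5 was the highest in both groups. The mean went from 1.45 ± 0.28 to 0.51 ± 0.27 (SD, n = 4), which is a log2 fold change (FC) of -0.94 with a standard error of 0.19, or 1.91-fold lower (limma, adjusted p = 0.000356).

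For GATA2 the mock T24 levels were -0.02, -0.30, -0.12 and 0.93, and those after 24 h of PMA-Ionomycin were -0.86, -0.67, -1.06 and -0.80. The groups did not overlap, and mock T24 was widely spread because rabbit 5 stood high. On no array of PMA-Ionomycin T24 was either GATA2 probe well above background, so that the level there is only bounded from above. By group means GATA2 was at least 1.91-fold lower than in mock T24 (measured means -0.84 and 0.12, log2 FC -0.97 with a standard error of 0.20, limma adjusted p = 0.000382). This bound allows for the floor only and not for the spread between rabbits, whose measured differences ran from -1.72 to -0.37. The same limit applies to the other folds given as at least. The bound sets the mean of mock T24 against, on each stimulated array, the higher of the GATA2 level and the lowest level of any probe well above background.

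Each GATA2 probe alone gave the same call. The log2 FC was -0.997 for the first probe and -0.934 for the second, with adjusted p of 0.000269 and 0.00122 in a limma fit of single probes. The 2 probes differed by -0.45 to 0.43 on single arrays, with a median of 0.11.

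GATA1 and GATA2 were the members called in this comparison, 2 of 5, both lower, while 33.6% of all 28864 genes tested were called and 11.5% of all genes were called lower (limma, adjusted p under 0.05). A count of 2 of 5 is near the share of all genes, and nothing is read from it. Within each slide the difference kept its direction, from -1.18 to -0.82 for GATA1 and from -1.26 to -0.63 for GATA2.

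PMA-Ionomycin at T24 was also compared with LPS at T24. The LPS T24 levels of GATA1 were 1.36, 1.31, 1.14 and 1.83, and those of GATA2 were 0.17, 0.20, -0.35 and 0.38. Neither gene's LPS T24 values overlapped those of PMA-Ionomycin T24. GATA1 was 1.86-fold lower after PMA-Ionomycin than after LPS (log2 FC -0.90, limma adjusted p = 0.00049). By group means GATA2 was at least 1.88-fold lower (log2 FC -0.94, limma adjusted p = 0.000432), a bound made in the same way. Again 2 of 5 members were called, against 36.1% of all genes, and 12.5% of all genes were called lower. These comparisons share the PMA-Ionomycin T24 arrays and are not independent.

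At T4 the same direction was seen for GATA1 with a smaller size. Mock T4 gave 0.95, 1.41, 1.16 and 1.47, and PMA-Ionomycin T4 gave 0.90, 0.58, 0.79 and 0.89. The groups did not overlap, although rabbit 1 differed by only -0.05. The log2 FC of -0.46 missed the threshold without pairing (limma adjusted p = 0.0939) and passed it with the rabbit as a block (limma adjusted p = 0.0309). For GATA2 the T4 values were -0.09, -0.24, 0.06 and 0.38 in mock and -0.30, -0.17, -0.35 and -0.33 after PMA-Ionomycin, and the groups overlapped (log2 FC -0.32, 95% confidence interval -0.73 to 0.09, limma adjusted p = 0.329). No member was called in this comparison (1 at an unadjusted p under 0.05), while 22.8% of all genes were.

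Whether the response to PMA-Ionomycin differed between T24 and T4 was tested as an interaction. It was -0.48 for GATA1 and -0.65 for GATA2, each more negative at T24 in 4 of 4 rabbits, and neither passed the threshold (limma adjusted p = 0.255 and 0.108). For GATA2 the T24 side is only bounded, and with the processed signal the interaction was -2.26 and passed (limma adjusted p = 0.00454). None of the 5 members passed, 2 had an unadjusted p under 0.05, and 22.5% of all genes were called.

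After LPS, GATA1 at T4 was 1.42, 0.58, 0.80 and 1.26, so that rabbit 1 was above its mock value and the other 3 below theirs. Its log2 FC against mock was -0.23 at T4 (95% confidence interval -0.63 to 0.16) and -0.04 at T24 (-0.43 to 0.36). For GATA2 these were -0.16 (-0.57 to 0.25) and -0.02 (-0.43 to 0.39). A difference smaller than these intervals was not detectable with 4 arrays a group.

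**Figure D2:**
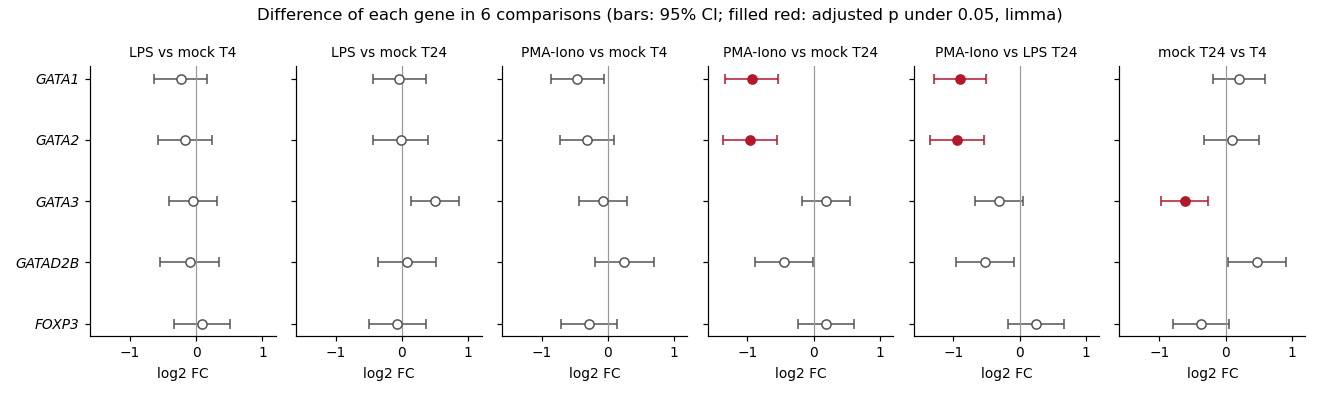
Log2 FC of the 5 genes with 95% confidence intervals in 6 comparisons (x axis, limma fit on all 24 arrays), with filled red points for an adjusted p under 0.05. GATA1 and GATA2 are near -0.9 in both comparisons of PMA-Ionomycin at T24, GATA3 is at -0.62 in mock T24 against T4, and FOXP3 has no filled point.

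Ordered by mean, GATA1 rose from PMA-Ionomycin T24 (0.51) through PMA-Ionomycin T4 (0.79), LPS T4 (1.01), mock T4 (1.25) and LPS T24 (1.41) to mock T24 (1.45). GATA2 had the same order, with measured means from -0.84 through -0.29, -0.13, 0.03 and 0.10 to 0.12. The lowest GATA2 mean is of arrays that were not well above background, so that only its place at the bottom is given and no step from it. For GATA1 the step from PMA-Ionomycin T24 to PMA-Ionomycin T4 exceeded the larger SD, with overlapping values. For GATA2 the step from PMA-Ionomycin T4 to LPS T4 exceeded the larger SD, by 0.15 against 0.09, with overlapping values. The other neighbours did not differ beyond their spread. Across the 24 arrays the levels of GATA1 and GATA2 had a Pearson r of 0.76, and 0.39 after the group means were removed. The arrays share rabbits and slides, and these correlations are a description.

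The genes most like GATA1 over the 24 arrays, of 6336 candidates with a symbol, were IL3RA (r = 0.93), the alpha chain of the IL3 receptor, IKZF3 (0.92), a zinc finger factor of lymphocytes, and TRAK2 (0.91). With group means removed these were 0.86, 0.80 and 0.73. The genes most like GATA2 were DGKE (0.91), MCTP2 and FCRL1 (both 0.90), with 0.85, 0.82 and 0.82 after group means were removed. FCRL1 is an Fc receptor-like protein of B cells.

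Genes that mark mast cells and basophils were counted beside these values. Of the 11 genes of that list, 7 were found by name, and at T24 PMA-Ionomycin lowered 2 and raised 1 of them. The median log2 FC was -0.60, beside 0.03 over all genes. The 3 of 7 called are near the 33.6% of all genes called. MS4A2, the beta chain of the high-affinity IgE receptor, was at 2.60, 2.57, 2.99 and 3.05 in mock T24 and at -0.82, -0.74, -0.94 and -0.13 after PMA-Ionomycin. It was well above background on 2 of the 4 stimulated arrays, and 11-fold lower in all (log2 FC -3.46, limma adjusted p = 1.53e-11). IL3RA was 4.61-fold lower (5.50 and 3.29 in mock and stimulated cells, limma adjusted p = 3.18e-05). HDC, which makes histamine, went the other way, 2.54-fold higher (0.95 and 2.29, limma adjusted p = 0.0135).

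At T4 MS4A2 was already 3.19-fold lower (limma adjusted p = 2.89e-06), and HDC was 12.3-fold higher (limma adjusted p = 5.12e-07). These were the genes of the 7 called there, beside 22.8% of all genes. None of the 7 genes was called for LPS at T4 or T24 by limma, with or without the rabbit as a block. MS4A2 was nonetheless lower after LPS in 4 of 4 rabbits at each time, by 0.44 log2 units at T4 and 0.45 at T24 (limma adjusted p = 0.38 and 0.466). The summed level of the 7 genes was 4.04 to 4.63 in PMA-Ionomycin T24 and 5.37 to 6.98 in mock T24, with 6 or 7 of them well above background on each array. At T4 the sum went the other way, with 6.61 to 7.94 after PMA-Ionomycin and 5.41 to 6.22 in mock. The sum is taken on the linear scale and follows its brightest genes, IL3RA at T24 (mean level 5.50 in mock and 3.29 after PMA-Ionomycin) and HDC in PMA-Ionomycin T4 (7.10). KIT, CPA3 and TPSAB1 were not found by name. Monocyte genes also fell in the stimulated cells. Of 8 found, 7 were lower and none higher at T24, beside 33.6% of all genes called and 11.5% called lower. Their summed level was 5.91 to 6.86 against 8.45 to 9.77 in mock, with CYBB 28.1-fold lower and CD14 9.65-fold lower. The part of these cells in the GATA1 and GATA2 values was not tested.

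**Figure D3:**
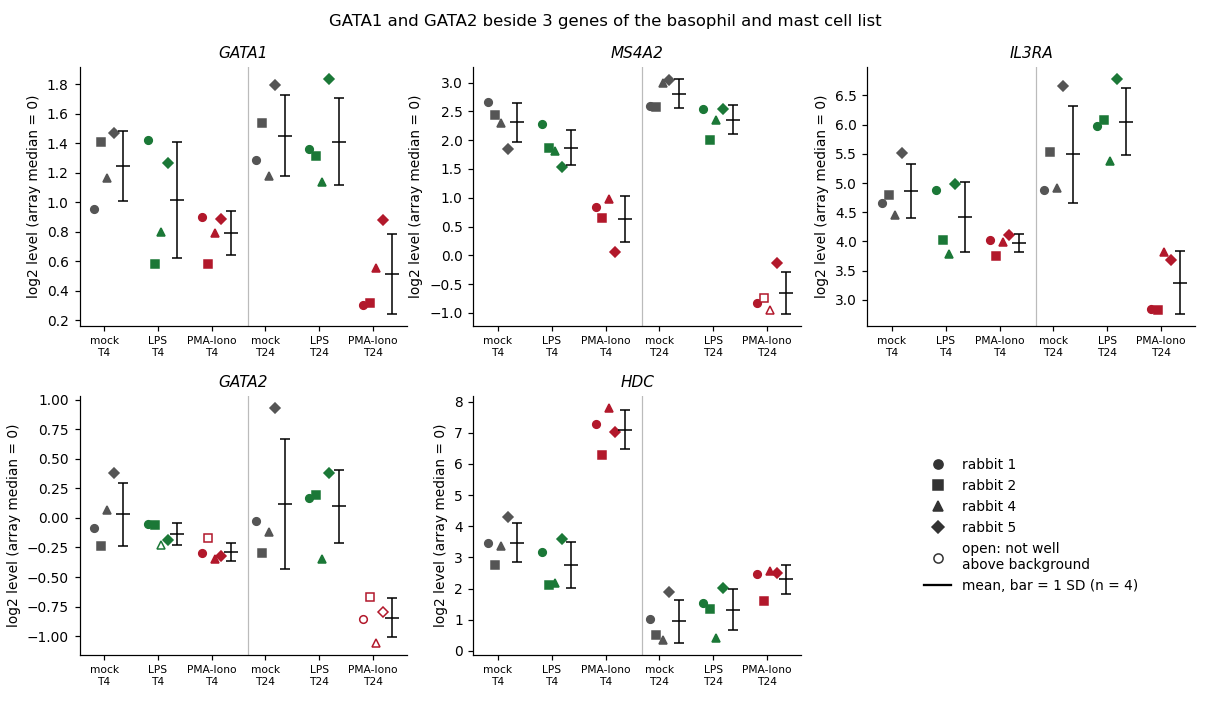
Log2 level (array median = 0) of GATA1, GATA2 and 3 genes of the mast cell and basophil list in the 6 groups, drawn as in the plot of levels by group. MS4A2 and IL3RA are lowest in PMA-Ionomycin T24, as GATA1 and GATA2 are, while HDC is highest in PMA-Ionomycin T4.

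Partners of GATA1 and GATA2 in progenitor and myeloid cells were counted from a list of 16 genes, of which 8 were found. PMA-Ionomycin lowered 4 and raised 1 of them at T24 (median log2 FC -0.46, beside 0.03 over all genes, of which 33.6% were called), and lowered 3 and raised none at T4 (-0.32, beside 0.05). SPI1 (PU.1), the myeloid and B cell factor that opposes GATA1, was 3.38-fold lower at T24 (limma adjusted p = 7.64e-07). CEBPA, a myeloid factor, was 3.75-fold lower (limma adjusted p = 5.26e-09). LDB1, the scaffold of the GATA1 complex, was 2.64-fold lower (limma adjusted p = 1.74e-05). CBFA2T3, a corepressor in the same complex, was 3.78-fold higher (limma adjusted p = 0.00489). After LPS, SPI1 was lower at T4 and CEBPA at T24, and these were the called genes of the list. They were called in 9 and 10 of 15 alternatives, SPI1 not without rabbit 2 or 4. Over time in mock cells 1 was higher, CEBPA (log2 FC 1.17), and none was lower. Over all genes 1.03% and 1.22% were called for LPS at T4 and T24, and 12.5% over time in mock. ZFPM1 (FOG1), TAL1 and LMO2 were not found by name.

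GATA3 fell in mock culture between T4 and T24. Its levels were -0.19, -0.01, -0.10 and 0.02 in mock T4 and -0.61, -0.51, -0.76 and -0.87 in mock T24. All 4 rabbits fell and the groups did not overlap. The log2 FC was -0.62 with a standard error of 0.17 (limma adjusted p = 0.018). GATA3 was well above background on all 4 arrays of mock T4 and on 1 of 4 in mock T24, and the size moved with the processing, to -1.52 with the processed signal scaled on its 75th percentile and to -0.38 with normexp and quantile normalization (limma adjusted p = 0.0292 and 0.048). It was the member called, 1 of 5, while 12.5% of all genes were called and 5.13% were called lower. Within slides the difference was -0.83 to -0.47. The call was lost when rabbit 2, 4 or 5 was left out (limma adjusted p = 0.0708, 0.11 and 0.0821), with log2 FC between -0.66 and -0.53.

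At T24 the level was higher with LPS than without it. The LPS T24 values of GATA3 were -0.11, -0.36, -0.50 and 0.19, above mock T24 in 4 of 4 rabbits and with no overlap. The difference of 0.50 (95% confidence interval 0.14 to 0.86) had an unadjusted p of 0.00896 and missed the threshold over all genes (limma adjusted p = 0.222). It was 1.45 with the processed signal and 0.31 without rabbit 5 (limma adjusted p = 0.174 and 0.512). None of the 5 members was called for LPS at T24 by limma, 1 had an unadjusted p under 0.05, and 1.22% of all genes were called. At T4 GATA3 was 0.20 in rabbit 2 and -0.40 in rabbit 5 after LPS, on both sides of mock (log2 FC -0.05, limma adjusted p = 0.918). None of the members was called for LPS at T4, none had an unadjusted p under 0.05, and 1.03% of all genes were called. Calls for LPS were few and unstable over all genes. At T4 the 297 calls became 0 without rabbit 2 or 4 or with the arrays of the comparison only, and 1230 with the rabbit as a block. At T24 the 352 calls became 109 without rabbit 2, 85 without rabbit 4, 611 without rabbit 5, 47 with the arrays of the comparison only and 748 with the rabbit as a block.

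These values rest on 1 spot an array, and the further spots of the same oligo were therefore read as a check, chosen after the data were seen. On the 24 arrays the mean of the 3 further spots differed from the single spot by -0.69 to 0.39, with a median absolute difference of 0.08 and a Pearson r of 0.79. The 3 spots themselves spanned 0.05 to 0.43 within an array. The largest gap was in PMA-Ionomycin T24 of rabbit 1, where the single spot gave 0.12 and the further spots -0.58.

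With the 4 spots averaged, the rise of GATA3 with LPS at T24 was 0.62 and passed the threshold (limma adjusted p = 0.00765). The fall in mock culture was -0.52 and also passed (limma adjusted p = 0.00459). The further spots alone read 0.08, 0.04, -0.15 and 0.29 in LPS T24 and -0.52, -0.45, -0.60 and -0.80 in mock T24. In the further spots, as in the single spot, LPS T24 overlapped mock T4 and LPS T4, and all 4 values of mock T24 lay below all values of these groups. The difference of the LPS response between T24 and T4 was 0.54 in the single spot and missed the threshold (limma adjusted p = 0.268).

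**Figure D4:**
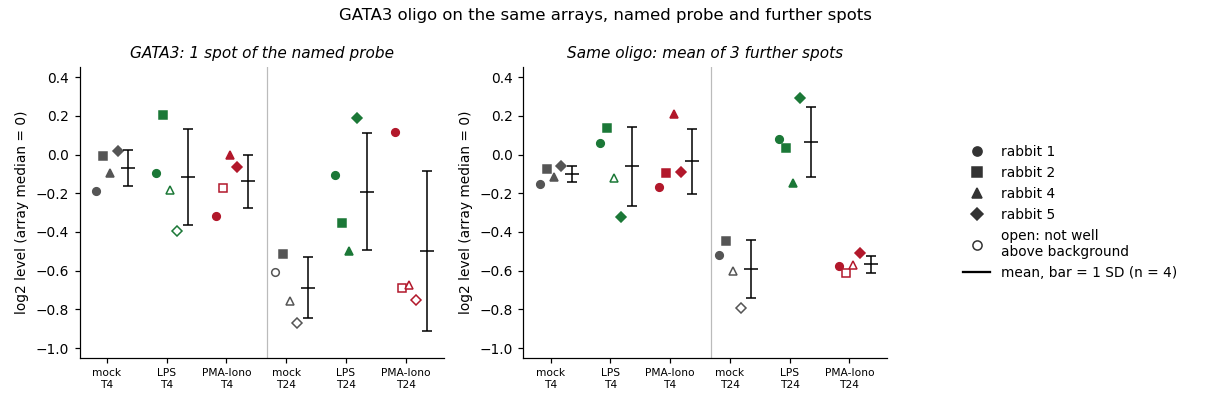
Log2 level (array median = 0) of the GATA3 oligo in the 6 groups, in the 1 spot of the named probe (left) and as the mean of the 3 further spots with the same sequence (right), drawn as in the plot of levels by group. Both panels show mock T24 below mock T4 and LPS T24 above mock T24, and they differ most in rabbit 1 of PMA-Ionomycin T24.

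GATA3 did not pass the threshold for PMA-Ionomycin against mock at either time. PMA-Ionomycin T4 gave -0.32, -0.17, 0.00 and -0.06, overlapping mock T4 (log2 FC -0.07, 95% confidence interval -0.43 to 0.29, limma adjusted p = 0.894). At T24 it gave 0.12, -0.69, -0.68 and -0.75, and 1 array of 4 was well above background in each of these groups, in the stimulated cells that of rabbit 1, so that most values lie near the floor (log2 FC 0.19, -0.17 to 0.55, limma adjusted p = 0.506). Against LPS at T24 the log2 FC was -0.31 (limma adjusted p = 0.198) with the single spot and -0.56 (limma adjusted p = 0.000691) with the 4 spots, and without rabbit 1 it was -0.48 (limma adjusted p = 0.049). In the single spot, from low to high the order of means was mock T24 (-0.69), PMA-Ionomycin T24 (-0.50), LPS T24 (-0.19), PMA-Ionomycin T4 (-0.14), LPS T4 (-0.12) and mock T4 (-0.07). No neighbours in this order differed beyond their spread. The further spots gave another order, with mock T24 (-0.591) and PMA-Ionomycin T24 (-0.568) lowest. Mock T4 (-0.102) came next and LPS T24 (0.065) was highest. There the values of PMA-Ionomycin T24 and mock T4 did not overlap.

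Of 12 genes linked to GATA3, 9 were found. At T4 4 were higher and 1 lower (median log2 FC 0.24, beside 0.05 over all genes, of which 22.8% were called) after PMA-Ionomycin, and at T24 again 4 were higher and 1 lower (0.29, beside 0.03 and 33.6%). IL4, the main Th2 cytokine, was at 2.24, 0.85, 1.33 and 1.90 in mock T4 and at 8.38, 8.32, 8.27 and 8.52 after PMA-Ionomycin. That is 111-fold higher at T4 (limma adjusted p = 1.12e-11), and at T24 it was 20.2-fold higher (limma adjusted p = 4e-09). IL13, which shares receptor subunits with IL4, was on no mock array well above background. By group means it was at least 137-fold higher at T4 (means 6.24 and -1.02, limma adjusted p = 1.93e-17) and at least 4.32-fold higher at T24 (1.17 and -1.21, limma adjusted p = 1.15e-09).

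IL10 was 35.1-fold higher at T4 and 3.83-fold higher at T24 (limma adjusted p = 1.96e-06 and 0.0222). IL9 was the remaining gene that rose, by 1.01 at T4 and 1.10 at T24 on the log2 scale. IL1RL1, the IL33 receptor of Th2 cells and mast cells, was 2.07-fold lower at T4 (limma adjusted p = 0.000125). By group means IL1RL1 was at least 2.24-fold lower at T24 (limma adjusted p = 6.02e-06). IL5 was well above background on at most 1 array of a group, and no fold is given. After LPS none of the 9 genes was called at T4, and IL10 was the 1 gene called at T24, 17.4-fold higher (limma adjusted p = 0.000806). In mock culture IL1RL1 was the 1 gene called, 1.56-fold lower at T24. Over all genes 1.03% and 1.22% were called for LPS at T4 and T24, and 12.5% in mock culture.

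**Figure D5:**
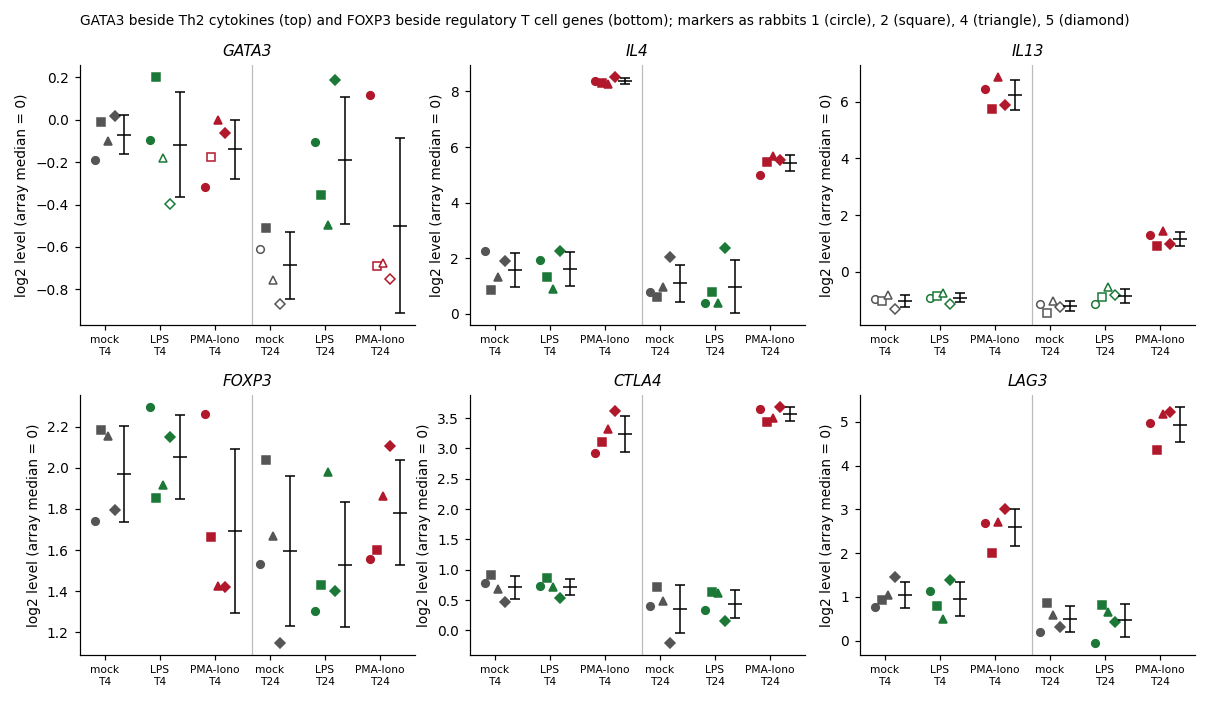
Log2 level (array median = 0) of GATA3 with IL4 and IL13 (top) and of FOXP3 with CTLA4 and LAG3 (bottom) in the 6 groups, drawn as in the plot of levels by group. IL4 and IL13 are highest in PMA-Ionomycin T4 and CTLA4 and LAG3 in PMA-Ionomycin T24, while the 4 values of GATA3 and of FOXP3 in the same groups overlap with those of mock at the same time.

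Among 20 regulators of helper T cell programmes 13 were found, and PMA-Ionomycin raised 5 and lowered 2 at T4 (median log2 FC 0.39, beside 0.05 over all genes, of which 22.8% were called) and raised 5 and lowered 1 at T24 (-0.05, beside 0.03 and 33.6%). BATF, an AP-1 family factor, was 8.70-fold higher at T4 and 7.53-fold higher at T24 (limma adjusted p = 1.47e-08 and 1.24e-08). STAT4, which transmits IL12 signals towards the Th1 fate, was higher at T24 (log2 FC 3.42, limma adjusted p = 2.63e-10). IRF4 and AHR were 4.19-fold and 4.31-fold higher at T4. STAT6, which transmits the IL4 signal that induces GATA3, was lower at T4 (log2 FC -0.99, limma adjusted p = 0.00206). TBX21, the Th1 factor, was not found by name. None of the 13 was called for LPS by limma. In mock culture 2 were lower at T24, IRF4 3.25-fold and STAT4 2.08-fold, beside 12.5% of all genes called and 5.13% called lower.

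T cell markers were read beside the GATA3 values. Of 15 listed, 11 were found, and their summed level was 4.39 to 4.96 in mock T4 (median 4.54), 4.15 to 4.73 in mock T24 (4.45), 4.46 to 5.08 in LPS T24 (4.80) and 4.34 to 4.66 in PMA-Ionomycin T24 (4.52), with 8 to 11 of them well above background. These ranges overlap. In mock culture 1 was higher and 2 were lower at T24, beside 12.5% of all genes called and 5.13% called lower. LAT, an adaptor of T cell receptor signalling, was 1.72-fold higher, while the kinase ZAP70 was 1.86-fold and CD247, the zeta chain of the receptor, 1.36-fold lower (limma adjusted p = 0.0445, 0.0392 and 0.0467). None of the 11 was called for LPS at either time by limma, while with the rabbit as a block LAT was higher at T24 and LCK, a kinase of the receptor, lower at T4 (limma adjusted p = 0.0283 and 0.0403). PMA-Ionomycin raised 1 and lowered 1 at T4, and raised 1 and lowered 3 at T24, beside 22.8% and 33.6% of all genes called. These counts are near those shares. CD3D, CD3E and CD3G were not found by name. The part of T cell number in the GATA3 values was not tested.

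The genes most like GATA3 over the 24 arrays were CD80 (r = 0.74), a ligand of CD28 and CTLA4 on antigen-presenting cells, SEC24D (0.72) and CYRIA (0.71), with 0.58, 0.50 and 0.53 after group means were removed. These are lower than for GATA1 and GATA2. GATA3 was read from a single dim spot, and the part of its noise in these values was not tested.

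GATAD2B was not called in any comparison with these centred values. Mock T24 gave 0.02, 0.26, 0.13 and 1.15, LPS T24 gave 0.72, 0.60, 0.13 and 0.40, and PMA-Ionomycin T24 gave -0.12, 0.06, -0.10 and -0.09. PMA-Ionomycin T24 was lower than mock in 4 of 4 rabbits, and the groups overlapped at the low end of mock. The log2 FC was -0.45 (95% confidence interval -0.89 to -0.01, limma adjusted p = 0.118) and was carried in large part by rabbit 5, whose mock value stood high, since without that rabbit it was -0.19. Against LPS at T24 the groups did not overlap, and the log2 FC was -0.53 (-0.97 to -0.08, limma adjusted p = 0.0595). This difference passed the threshold under 5 of 15 alternatives, among them the processed signal (-1.26, limma adjusted p = 0.00971) and the deposited log2 table (-0.69, limma adjusted p = 0.0142). These also called the difference from mock (-0.99 and -0.60, limma adjusted p = 0.0435 and 0.0343).

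At T4 GATAD2B was -0.02, -0.03, 0.06 and -0.34 in mock cells, -0.32, -0.18, -0.03 and -0.20 after LPS, and -0.45, 0.04, 0.62 and 0.46 after PMA-Ionomycin. The last group spanned more than 1 log2 unit, with rabbit 1 below mock and rabbits 4 and 5 above it. The mock T24 against T4 difference was 0.47 (limma adjusted p = 0.185), positive in 4 of 4 rabbits, and 0.13 without rabbit 5. The interaction of PMA-Ionomycin and time was -0.70 (limma adjusted p = 0.108), and -1.03 without rabbit 1 (limma adjusted p = 0.0358). From low to high the means were LPS T4 (-0.18), mock T4 (-0.08), PMA-Ionomycin T24 (-0.06), PMA-Ionomycin T4 (0.17), mock T24 (0.39) and LPS T24 (0.46), and no neighbours differed beyond their spread. The genes most like GATAD2B were LYST (r = 0.80), CLTC (0.79), the clathrin heavy chain, and DPP8 (0.77), with 0.80, 0.68 and 0.72 after group means were removed.

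Other NuRD subunits were found for 6 of 13 genes. PMA-Ionomycin raised 3 at T4 and lowered none (median log2 FC 0.33, beside 0.05 over all genes, of which 22.8% were called). These were MTA1 (2.21-fold, limma adjusted p = 8.07e-05), the helicase CHD4 (2.07-fold, 0.00565) and CHD3 (1.46-fold, 0.00214). At T24 MTA1 was the 1 gene called, 2.40-fold higher, beside 33.6% of all genes called. None of the 6 was called for LPS by limma, while with the rabbit as a block MTA1 was lower at T4 (limma adjusted p = 0.0323). In mock culture the deacetylase HDAC1 was 1.77-fold higher at T24 than at T4, beside 12.5% of all genes called. GATAD2A, the paralog of GATAD2B, was among the 6, with a log2 FC of 0.01 for PMA-Ionomycin against mock at T24 and of -0.75 for PMA-Ionomycin against LPS at T24 (limma adjusted p = 0.0368).

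Of 9 other genes with a GATA or FOXP domain 6 were found. FOXP1, a lymphocyte factor related to FOXP3, was 2.16-fold higher at T4 after PMA-Ionomycin (limma adjusted p = 2.83e-05), and TRPS1, an atypical GATA repressor, was 1.62-fold lower at T24 (limma adjusted p = 1.61e-05). No other gene of these 6 was called in the comparisons with mock or in mock culture over time. For PMA-Ionomycin 22.8% and 33.6% of all genes were called at T4 and T24.

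FOXP3 was not called in any comparison with these centred values. Mock T4 gave 1.74, 2.19, 2.16 and 1.80, LPS T4 gave 2.30, 1.86, 1.92 and 2.15, and PMA-Ionomycin T4 gave 2.26, 1.66, 1.42 and 1.42. After PMA-Ionomycin 3 of 4 rabbits were lower than mock, and rabbit 1 was higher. At T24 the levels were 1.53, 2.04, 1.67 and 1.15 in mock, 1.30, 1.43, 1.98 and 1.40 after LPS, and 1.55, 1.60, 1.86 and 2.11 after PMA-Ionomycin. All these groups overlapped.

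The log2 FC of FOXP3 for PMA-Ionomycin was -0.28 at T4 (95% confidence interval -0.70 to 0.15, limma adjusted p = 0.44) and 0.19 at T24 (-0.24 to 0.61, limma adjusted p = 0.602). For LPS it was 0.09 at T4 (-0.34 to 0.51) and -0.07 at T24 (-0.49 to 0.36). The upper ends of these 95% intervals for PMA-Ionomycin were 0.15 at T4 and 0.61 at T24. They hold for this fit and this probe, and are not a largest possible rise. From T4 to T24 in mock culture it was lower in 4 of 4 rabbits, by 0.15 to 0.65, without passing the threshold (log2 FC -0.37, limma adjusted p = 0.299). From low to high the means were LPS T24 (1.53), mock T24 (1.60), PMA-Ionomycin T4 (1.69), PMA-Ionomycin T24 (1.78), mock T4 (1.97) and LPS T4 (2.06), and no neighbours differed beyond their spread.

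The raw brightness of FOXP3 varied less between arrays than its centred level, with an SD over the 24 arrays of 0.26 against 0.33 on the log2 scale. The centred level had a Pearson r of -0.62 with the log2 median signal of the array, which the centring subtracts, and with that of GATAD2B it was 0.52. The part of the array median in these values was not tested. The genes most like FOXP3 were RHOJ (r = 0.96), PROB1 and SCNN1A (both 0.95), an epithelial sodium channel subunit, with 0.96, 0.97 and 0.95 after group means were removed. These correlations were thus as high within groups as over all arrays.

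Of 20 listed genes linked to regulatory T cells, 11 were found. At T4 PMA-Ionomycin raised 5 and lowered 1 (median log2 FC 0.18, beside 0.05 over all genes, of which 22.8% were called), and at T24 it raised 4 and lowered 1 (0.08, beside 0.03 over all genes, of which 33.6% were called). CTLA4, an inhibitory receptor of regulatory and activated T cells, was at 0.47 to 0.92 in mock T4 and at 2.93 to 3.61 after PMA-Ionomycin, with no overlap. It was 5.77-fold higher at T4 and 9.28-fold higher at T24 (limma adjusted p = 1.8e-10 and 1.27e-12). LAG3, another inhibitory receptor, was 2.93-fold higher at T4 and 21.8-fold higher at T24 (limma adjusted p = 3.21e-05 and 1.83e-12). TNFRSF9 (4-1BB) and ICOS, both costimulatory receptors, were 3.03-fold and 2.19-fold higher at T4. FOXO3, a forkhead factor, was 4.15-fold lower at T24 (limma adjusted p = 1.37e-09).

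Activated T cells other than regulatory ones also make CTLA4, LAG3, TNFRSF9 and ICOS. IL2RA, IKZF4, TNFRSF18, LRRC32 and ENTPD1 were not found by name. After LPS, CAPG was 2.39-fold lower at T4 (limma adjusted p = 0.0473) and was the 1 gene of the 11 called there, a call made in 5 of 15 alternatives and lost without rabbit 2 or 4. None was called at T24. In mock culture CAPG was 3.18-fold higher and TNFRSF9 1.63-fold lower at T24 than at T4. Over all genes 1.03% were called for LPS at T4 and 12.5% in mock culture.

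In the comparisons not given above, no member was called for PMA-Ionomycin against LPS at T4 by limma (none at an unadjusted p under 0.05), while 26.7% of all genes were. FOXP3 was lower in 4 of 4 rabbits there (log2 FC -0.36, limma adjusted p = 0.225), and passed the threshold under 3 other scalings, quantile normalization among them (-0.62, limma adjusted p = 0.0287). None was called for the interaction of LPS and time (1 at an unadjusted p under 0.05), while 1.94% of all genes were. Those 561 calls became 7 without rabbit 2, 31 without rabbit 4, 184 without rabbit 5 and 1658 with the rabbit as a block.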

How the data were processed

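PBMCs of 4 rabbits in 6 groups gave 24 arrays. The authors deposited each array's scanner output (Agilent Feature Extraction 10.7.3.1 per the labels, build oryCun2 and protocol GE1_107_Sep09 per the file headers), in which median, mean, background and processed signals are intensities with no scaling between arrays. They also deposited a log2 table, which equals the log2 median signal minus a constant for each array.

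Here spots flagged as outliers were left out, log2 median signals were centred on each array's median, and spots were averaged per probe and probes per gene. Of 42089 probes 9200 took their gene from RefSeq by accession, 8455 by gene number, 460 from the study's list of added genes, and others from names in the files, while 22018 kept an identifier only. A limma fit with a mean for each group used all arrays, with Benjamini-Hochberg adjustment over all genes and a threshold of 0.05. It was tested on simulated data. A gene was taken as well above background where any of its probes was. R 4.3.3, limma 3.58.1 and Python 3.11.15 were used.

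The genes, the gene lists (partners, targets and cell markers) and the alternatives were chosen with earlier results of these data known. Named list genes are up to 4 called genes a list and comparison with the largest absolute log2 FC, if every array of whichever group was brighter measured them well above background, and a few fixed by name (such as IL5). Genes named beyond these were chosen after their values were seen. They are IL9, STAT6, GATAD2A, LCK and SLC4A1. Some list genes are not reported here. The most alike genes had the highest Pearson r among genes with a symbol well above background on at least 12 arrays.

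Rabbit numbers mark the same animals and so pair the samples. The median r of deviations from group means was 0.23 for 60 pairs of arrays from 1 rabbit and -0.07 for 180 pairs from different rabbits in different groups. The study's methods use no pairing, so the rabbit block is among the alternatives, which also were quantile normalization, the processed signal, normexp with quantile normalization, the deposited table, dim probes left out, outliers kept, arrays of the comparison only, slide as a block, trend and robust eBayes, array weights, single probes and leaving out each rabbit. The number of arrays limits the precision.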

Additional observations from a re-analysis of the deposited data

Results flagged for a closer look

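In PMA-Ionomycin T24 the GATA3 level of rabbit 1 (0.12) stood apart from the other 3 (-0.75 to -0.68). The gap to the nearest of them was 0.912 of the whole range of the group, above Dixon's 95% critical value for 4 samples. This was 1 of 30 groups examined, and chance flags about 1 in 20 groups. On the same array the 3 further spots of the same oligo read -0.58, near the other rabbits.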

How the results depend on the processing

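GATA1 and GATA2 kept their direction and their call for PMA-Ionomycin against mock and against LPS at T24 under all alternatives, with log2 FC against mock of -1.55 to -0.83 and -3.26 to -0.69. The largest sizes came from the processed signal. The rabbit as a block changed 1 call among the 5 genes: GATA1 passed for PMA-Ionomycin at T4, so that 1 member was called, as also with quantile normalization, the processed signal, and normexp with quantile normalization. Of all 28864 genes, 7487, 7390, 7001 and 7327 were called there in the same order. For PMA-Ionomycin against LPS at T4, 1 member (FOXP3, log2 FC -0.73 to -0.57) was called under the same 3 scalings. These called 8875, 10097 and 8745 of all 28864 genes. At T24, 4 were called with the processed signal and with the deposited table, which added GATA3 and GATAD2B. These settings called 10700 and 11011 of all 28864 genes in that comparison. With the 3 further GATA3 spots 1 was called for LPS at T24, beside 353 of all 28864 genes. For the interaction of PMA-Ionomycin and time 1 was called with the processed signal (GATA2, -2.26), beside 6258 of all genes. Leaving out 1 rabbit gave 0 to 1, beside 4525 to 6481 of all genes. For mock T24 against T4 leaving out 1 rabbit gave 0 to 1, beside 2271 to 3666 of all genes. The causes were not tested. The low signal of GATA2 and GATA3 limits their values.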

Other observations

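The remaining cell marker lists gave the following counts. They stand beside shares of all genes called of 22.8% and 33.6% for PMA-Ionomycin at T4 and T24, 1.03% and 1.22% for LPS, and 12.5% for mock T24 against T4. Of 9 B cell genes 6 were found, and PMA-Ionomycin raised 2 and lowered 2 at T4 and raised 1 and lowered 2 at T24, with MS4A1 (CD20) 6.19-fold lower and BLK 3.36-fold higher at T24. None of them was called for LPS by limma, and CD22 was 1.56-fold higher in mock T24 than in mock T4. Of 12 platelet genes 8 were found. In mock culture 6 were lower at T24 than at T4, TUBB1 by 20.4-fold and TREML1 by 16.3-fold, while 5.13% of all genes were called lower. PMA-Ionomycin lowered 6 at T4 and raised 2 at T24, and none was called for LPS by limma. The summed level of the 8 platelet genes was 5.86 to 7.13 in mock T4, 3.61 to 4.75 in PMA-Ionomycin T4, 2.88 to 3.39 in mock T24 and 3.50 to 3.97 in PMA-Ionomycin T24. The GATA1 differences over the same groups were -0.46 for PMA-Ionomycin at T4, -0.94 at T24 and 0.20 for mock T24 against T4, and the part of platelets in them was not tested.

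Of 13 erythroid genes 7 were found, most of them dim. For PMA-Ionomycin none was called at T4, and at T24 SLC4A1 was called lower (log2 FC -0.40), which was well above background on 1 of 4 mock and 0 of 4 stimulated arrays, so that no fold is given. None was called for LPS by limma. Of 7 NK cell genes only PRF1 and KLRK1 were found, and PRF1 was 1.69-fold lower at T4 and 1.94-fold higher at T24 after PMA-Ionomycin. In the monocyte list of 12, CD14 and CSF1R were called lower after LPS at T4 (2.93-fold and 2.72-fold) and MPEG1 at T24 (4.51-fold). These calls were made in 8, 5 and 13 of 15 alternatives, and those at T4 were lost without rabbit 2 or 4. Of the 8 genes found, 5 rose in mock culture, CYBB by 9.62-fold, beside 12.5% of all genes called.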
